A study of Homo sapiens with 6 samples.

Results

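Of the genes of the insulin-like growth factor (IGF) system, 9 are described here: the binding protein genes IGFBP2, IGFBP3, IGFBP4, IGFBP5, IGFBP6 and IGFBP7 and the receptor genes IGF1R, INSR and IGF2R. They were found by symbol among the 58381 gene IDs of the deposited table, and the list was chosen by an earlier look at their measured differences between the fractions, so those differences are given as descriptions and without p-values. RNA was sequenced from MCF10AT1, a human breast epithelial line derived from MCF10A cells that carry activated HRAS and were passed through a mouse xenograft. By fluorescence-activated sorting on surface CD24 and CD44 it was divided into a CD24low, CD44high fraction (CSC in the column names) and a CD24high, CD44-positive fraction (Bulk in the column names), with 3 libraries of rRNA-depleted total RNA each. Whether Bulk was a gate of its own or the cells that remained is not said in the labels. All cells, of both fractions, were grown with 10 μg/ml insulin, 20 ng/ml EGF, 100 ng/ml cholera toxin, 0.5 μg/ml hydrocortisone and 5% horse serum, so both were exposed to added insulin and to whatever growth factors the serum held. The work used 1 cell line, and the labels do not tell whether replicates were separate cultures; the spread behind the p-values of other genes below may therefore be technical.

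IGF1 and IGF2 are secreted ligands that act through the receptor tyrosine kinase IGF1R, while INSR, its close relative, is the receptor for insulin and also takes IGF2 in one of its splice forms. IGF2R, which is also the cation-independent mannose 6-phosphate receptor, has no kinase: it removes IGF2 from the cell surface and carries lysosomal enzymes. The IGF-binding proteins are secreted carriers that hold IGFs away from the receptors or deliver them, and proteases that cut them release the ligand. Insulin itself is bound little by most of them, and IGFBP7 binds IGFs only weakly.

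In the CD24low fraction 4 of the 6 binding protein genes (IGFBP2, IGFBP4, IGFBP6 and IGFBP7) were higher in every library than in any CD24high library. IGFBP3 overlapped between the fractions, IGFBP5 was at or near 0 everywhere, and the 3 receptor genes overlapped as well. No member was lower in all CD24low libraries. Of all 16047 genes tested, 10.2% had groups that did not overlap with CD24low higher and 9.32% with CD24low lower; the members were chosen with this contrast known, so nothing is read from their count of 4 of 9. The plot of normalized counts by library shows these values. A normalized count is a read count divided by a size factor of its library; differences subtract the mean log2 (normalized count + 1) of CD24high from that of CD24low, a scale that understates the change of low genes. Where 3 values are listed for a fraction, they are its replicates 1, 2 and 3 in that order.

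**Figure D1:**
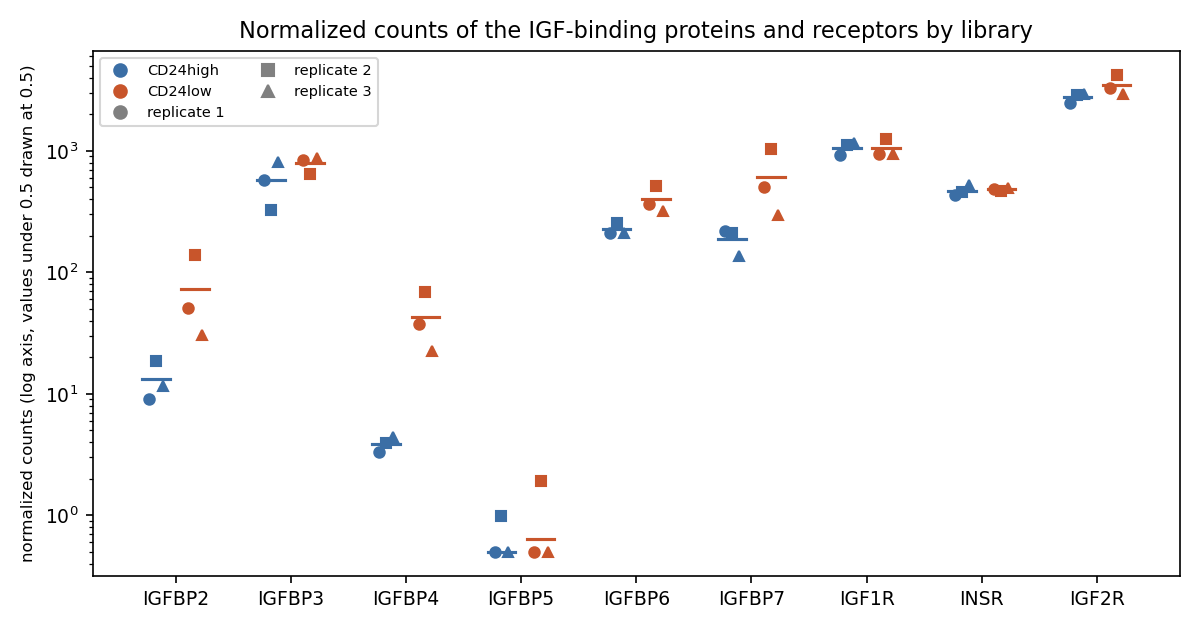
Normalized counts (log axis) of the 9 genes in each of the 6 libraries; blue marks CD24high, orange CD24low, the marker shape the replicate, the bar the mean of 3 libraries, and values under 0.5 are drawn at 0.5. The orange points of IGFBP2, IGFBP4, IGFBP6 and IGFBP7 lie above all their blue points, while those of IGF1R, INSR and IGF2R overlap.

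The sequences before the start sites of IGFBP2 and IGFBP4, the members with the largest differences, are shown with that of IGFBP5, which lies 7.67 kb from IGFBP2 on chromosome 2 and points towards it. Each is the 250 bases before a RefSeq start (GRCh38.p14), at chr2:216632578-216632827 (plus strand, the first of 3 IGFBP2 starts), chr17:40443200-40443449 (plus strand) and chr2:216695550-216695799 (minus strand), and none of their bases lies in an exon of the same gene in GENCODE 29. Capitals mark every match, on either strand, to 4 short motifs. The GC box, bound by SP factors, was searched as GGGCGG. The box that places the start of many tightly regulated genes was searched as TATAAA, which is its common form. The core of the RUNX site, chosen because the series title names those factors, was searched as TGTGGT. The E-box that ZEB repressors favour was searched as CACCTG. No motif overlaps another in these windows.
IGFBP2: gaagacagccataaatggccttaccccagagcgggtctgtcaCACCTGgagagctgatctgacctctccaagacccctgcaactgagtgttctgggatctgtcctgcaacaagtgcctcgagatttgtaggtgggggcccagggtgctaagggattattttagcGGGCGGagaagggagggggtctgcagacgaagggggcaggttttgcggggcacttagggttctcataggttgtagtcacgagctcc
IGFBP4: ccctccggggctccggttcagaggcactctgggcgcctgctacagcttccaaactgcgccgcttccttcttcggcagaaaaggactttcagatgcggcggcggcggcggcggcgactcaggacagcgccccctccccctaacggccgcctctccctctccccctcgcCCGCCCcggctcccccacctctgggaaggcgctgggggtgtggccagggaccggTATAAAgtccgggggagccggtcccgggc
IGFBP5: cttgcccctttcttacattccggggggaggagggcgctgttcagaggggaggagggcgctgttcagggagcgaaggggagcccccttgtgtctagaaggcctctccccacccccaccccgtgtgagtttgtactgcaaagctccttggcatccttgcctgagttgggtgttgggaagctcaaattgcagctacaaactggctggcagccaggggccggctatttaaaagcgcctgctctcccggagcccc
The IGFBP2 window shown held 1 GC box and 1 E-box, the IGFBP4 window 1 GC box and 1 TATA box, and the IGFBP5 window none of the 4 motifs. The windows of the other IGFBP2 starts lacked the E-box: the second held 1 GC box and the third none of the 4 motifs. Over 35116 RefSeq promoter windows of the same length, 42.6% held the GC box, 10.7% the TATA box, 11.0% the RUNX core and 17.5% the E-box. The RUNX core was found in no window of the 8 members that the table covers, on either strand. These matches are letters in a window and say nothing about binding.

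IGFBP4, a carrier that the protease PAPPA cleaves (ENSG00000141753.6, chromosome 17, 40443461 to 40457731, plus strand, hg38), had the largest difference of the members. It had 3.32, 3.95 and 4.38 normalized counts in CD24high cells, from 4, 4 and 3 reads. In CD24low replicates 1, 2 and 3 it had 37.9, 68.8 and 22.5. The lowest CD24low library was thus several times above the highest CD24high library, where the gene was barely detected. The log2 difference was 3.04 (SE 0.43). On summed reads, 11 against 138, the ratio was 11.4, with an exact 95% interval of 6.16 to 23.3 that covers counting error only. IGFBP4 passed the filter of a mean of 10 normalized counts only through its CD24low libraries.

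IGFBP2, which carries an integrin-binding motif as well as its IGF-binding domain (ENSG00000115457.9, chromosome 2, 216632828 to 216664436, plus strand), was low in CD24high cells, with 9.13, 18.8 and 11.7 normalized counts. The CD24low libraries had 51.1, 139 and 30.4. The groups did not overlap, though the CD24low libraries differed several-fold among themselves. The difference was 2.16 (SE 0.51), and the ratio on summed reads was 5.58 (exact 95% interval 3.95 to 8.08, counting error only).

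IGFBP7, a matrix-associated relative that binds IGFs weakly (ENSG00000163453.11, chromosome 4, 57030773 to 57110385, minus strand), had 217, 212 and 136 normalized counts in CD24high cells and 502, 1035 and 298 in CD24low cells. Its difference was 1.54 (SE 0.38). It shares 396 bases with POLR2B, a subunit gene of RNA polymerase II on the opposite strand. The strand setting of the authors' counting is not given in the sources used here, so some reads could belong to either gene. POLR2B had 2748 to 3288 normalized counts. IGFBP7 differed 7.62-fold between its lowest and highest library. The part of reads from the shared bases in the IGFBP7 difference was not tested.

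IGFBP6, a carrier that prefers IGF2 (ENSG00000167779.7, chromosome 12, 53097436 to 53102345, plus strand), was already plentiful in CD24high cells, with 211, 257 and 209 normalized counts. It reached 364, 514 and 320 in CD24low cells. The difference of 0.80 (SE 0.19) was the smallest of the 4 genes without overlap. In each of these 4 genes CD24low replicate 2 was the highest library and CD24low replicate 3 the lowest of its group.

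IGFBP3, the main IGF carrier of blood and a secreted product of many epithelia (ENSG00000146674.14, chromosome 7, 45912245 to 45921874, minus strand), did not separate the fractions. Its normalized counts were 573, 329 and 809 in CD24high cells and 847, 646 and 875 in CD24low cells. CD24high replicate 3 lay above CD24low replicate 2, so the groups overlapped, and replicate 2 was the lowest library of both fractions. The difference was 0.55 (SE 0.28), but 0.20 without CD24high replicate 2 and 0.85 without CD24high replicate 3. IGFBP5, a carrier that binds extracellular matrix (ENSG00000115461.4, chromosome 2, 216672105 to 216695525, minus strand), had 1 read in CD24high replicate 2, 2 reads in CD24low replicate 2 and 0 in the other libraries. A count of 0 allows up to 3 reads, or 2.49 to 4.38 normalized counts by library, so no fold is given; it did not pass the filter, so 8 of the 9 members entered the fit.

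The receptor genes were abundant, and IGF1R and INSR were steady between the fractions. IGF1R (ENSG00000140443.13, chromosome 15, 98648539 to 98964530, plus strand) had 923, 1108 and 1166 normalized counts in CD24high cells and 946, 1248 and 949 in CD24low cells, a difference of -0.03 (SE 0.15). INSR (ENSG00000171105.13, chromosome 19, 7112255 to 7294034, minus strand) had 430, 457 and 520 and then 487, 470 and 499, a difference of 0.05 (SE 0.12). IGF2R (ENSG00000197081.12, chromosome 6, 159969099 to 160113507, plus strand) had 2484, 2892 and 2965 and then 3270, 4246 and 2913, a difference of 0.31 (SE 0.15), with CD24low replicate 3 inside the CD24high range. From lowest to highest library INSR differed 1.21-fold, IGF1R 1.35-fold and IGF2R 1.71-fold. INSR was the least variable of the 8 tested members over these libraries. Within IGF2R, the antisense gene AIRN had 0 reads in all libraries.

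Counts depend on gene length, so levels were compared between genes as normalized counts per kilobase (kb) of merged exons. In CD24high cells the highest level per kb was that of IGFBP6 (168 ± 20.2, SD, n = 3), followed by IGF2R (156 ± 14.5), IGFBP3 (125 ± 52.6), IGFBP7 (97.7 ± 23.7) and IGF1R (76.4 ± 9.12). In this run no neighbours differed beyond their SDs. INSR (44.9 ± 4.43) was below IGF1R by more than both SDs, and IGFBP2 (2.77 ± 1.05) and IGFBP4 (1.77 ± 0.243) were far lower and close to each other.

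In CD24low cells IGFBP7 came first (317 ± 197 per kb, SD, n = 3), with IGFBP6 (297 ± 75.4) next, then IGF2R (195 ± 38.7) and IGFBP3 (173 ± 27.3). These neighbours overlapped within their SDs. IGF1R (75.2 ± 12.5) and INSR (46.4 ± 1.38) stayed at their places below them, and IGFBP4 (19.6 ± 10.7) and IGFBP2 (15.4 ± 12.0) were nearer to INSR than in CD24high cells but still below it. With the length of the longest transcript instead, IGFBP3 was first in CD24high cells (236 per kb) and IGFBP7 was still first in CD24low cells (429 per kb).

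**Figure D2:**
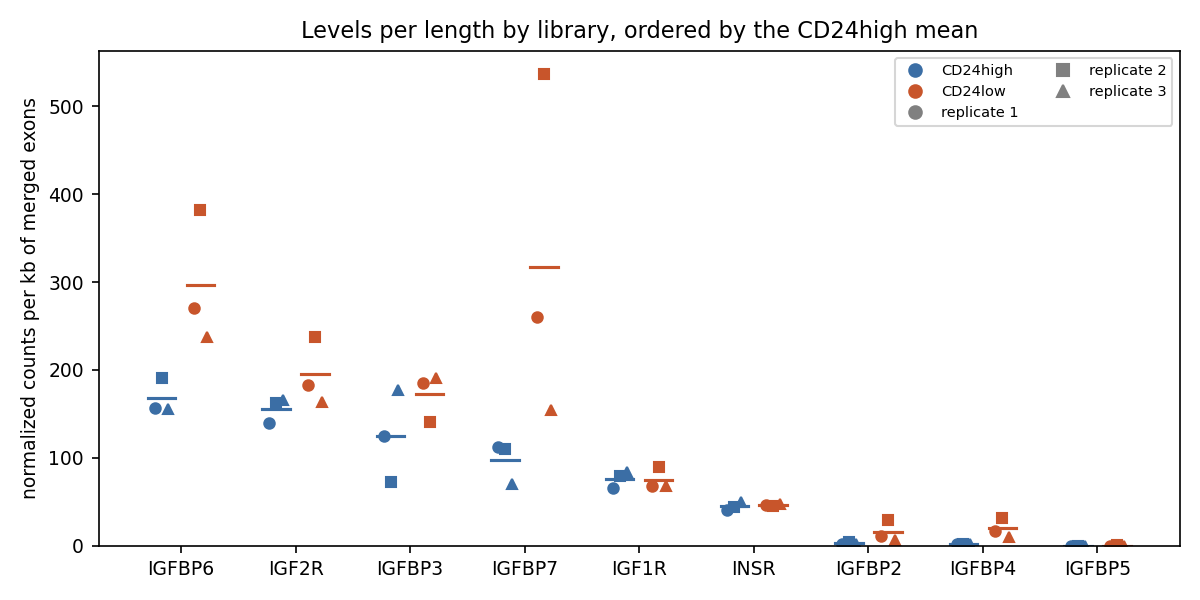
Normalized counts per kb of merged exons in each library, for the 9 genes in the order of their CD24high mean; colours, shapes and bars as in the plot of counts by library. IGFBP7 moves from a CD24high mean of 97.7 to a CD24low mean of 317, while IGF1R stays at 76.4 and 75.2.

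The binding protein genes were also taken as a pool. The summed level of the 6 genes was 398, 379 and 407 normalized counts per kb in CD24high cells and 744, 1120 and 600 in CD24low cells, with no overlap. IGFBP3, IGFBP6 and IGFBP7 made up most of this sum in all 6 libraries. IGFBP6 gave 42.6% ± 6.75 (SD, n = 3) of it in CD24high and 36.7% ± 2.80 in CD24low cells. IGFBP3 gave 31.3% ± 12.2 and 23.1% ± 9.76, and IGFBP7 gave 24.9% ± 6.59 and 36.2% ± 11.1; the groups overlapped for all of these shares. IGFBP4 gave 0.448% ± 0.0597 and 2.27% ± 0.544, and here the groups did not overlap. IGFBP2 gave 0.708% ± 0.294 and 1.70% ± 0.798. Its groups were barely apart, with 1.04% in the highest CD24high and 1.06% in the lowest CD24low library. By the longest transcript they overlapped (0.834% and 0.799%). The order of the larger shares also depended on the length used. By the longest transcript IGFBP3 gave 41.0% and IGFBP6 34.4% of the CD24high sum. Set against the receptor, the summed binding protein level was 6.01, 4.76 and 4.87 times that of IGF1R in CD24high cells and 11.0, 12.5 and 8.82 times in CD24low cells. The ratio of IGF1R to INSR per kb was 1.70 ± 0.105 and 1.62 ± 0.318, with overlap.

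Libraries ranged from 16691162 to 27293177 recovered reads, and CD24high replicate 3 was the shallowest. Genes of rRNA type, mitochondrial rRNA included, took 1.30% to 2.27% of reads in CD24high replicates 1 and 2 and CD24low replicate 3 (low share). In the other libraries they took 7.07% to 10.2% (high share). The members' differences were therefore also taken within each share, without a test because 1 side has a single library. IGFBP4 differed by 2.35 within low and 3.27 within high share, IGFBP2 by 1.15 and 2.75, IGFBP7 by 0.47 and 2.40 and IGFBP6 by 0.46 and 1.05. All 4 were positive in both, and smaller within low share, whose only CD24low library is replicate 3. IGFBP3 differed by 1.01 and -0.13, INSR by 0.17 and -0.12, IGF1R by -0.09 and -0.10 and IGF2R by 0.12 and 0.33.

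With 1 library left out, IGFBP4 ranged from 2.64 to 3.42, IGFBP2 from 1.57 to 2.64, IGFBP7 from 1.06 to 1.96 and IGFBP6 from 0.60 to 0.94. In each of these genes the low end was without CD24low replicate 2 and the high end without CD24low replicate 3. IGF1R ran from -0.16 to 0.04, INSR from -0.01 to 0.13 and IGF2R from 0.15 to 0.43. Limma called 0 of the 8 tested members at an adjusted p of 0.05 and 0% of all genes; 4 of these members and 13.5% of all genes had an unadjusted p below 0.05. DESeq2 on recovered reads called 3 members (IGFBP2, IGFBP4 and IGFBP6), all higher, and 1.36% of all genes as higher; edgeR called 0% of all genes. The members were chosen with this contrast known, and IGFBP4 passed the filter only through its CD24low libraries. Nothing is therefore read from the members' counts.

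**Figure D3:**
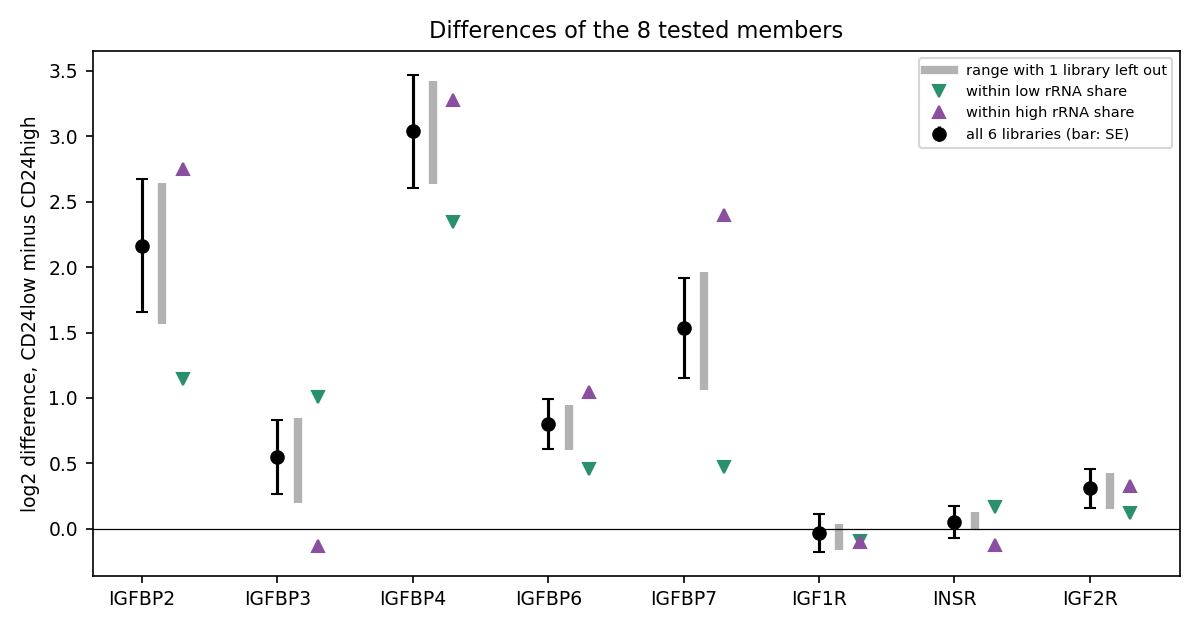
Log2 differences (CD24low minus CD24high) of the 8 tested members: black points with SE from all 6 libraries, grey bars the range with 1 library left out, green and purple triangles the differences within low and within high rRNA share. IGFBP4, IGFBP2, IGFBP7, IGFBP6 and IGF2R stay above 0 in all of these, while IGF1R, INSR and IGFBP3 lie on both sides of 0.

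Markers of other cell types were measured in the same libraries. Of 10 fibroblast markers, 3 (DCN, COL3A1 and COL6A3) had higher values in all CD24low libraries and FAP had lower ones. COL3A1 rests on 1, 0 and 0 reads against 2, 10 and 5, and since a count of 0 allows up to 3 reads its groups could not be separated at this depth. The summed level was 929 to 1363 normalized counts in CD24high and 1691 to 4616 in CD24low libraries. Most of this sum was DCN, the proteoglycan decorin, and FAP: without them the sums were 64.7 to 91.9 and 102 to 298. The other markers overlapped between the fractions: COL1A1 had 18.3 to 38.0 normalized counts in CD24high and 27.4 to 110 in CD24low libraries, and PDGFRB 2.96 to 4.38 and 3.53 to 11.5. PDGFRA had 4 reads in CD24low replicate 2 and 0 elsewhere, COL1A2 and THY1 had at most 1 read in any library, and LUM had 0 reads in all of them. Of 9 breast epithelial markers 5 were lower without overlap in CD24low cells, with sums of 99891 to 127291 in CD24high and 69585 to 104099 in CD24low libraries. Of 5 endothelial and 5 leukocyte markers 0 differed without overlap. Of 4 adipocyte markers 2 (PLIN1 and FABP4) had higher values in all CD24low libraries, from 1 to 11 reads a library. FABP4 had 7.90 normalized counts in its highest CD24high and 7.93 in its lowest CD24low library. At these read numbers the groups of PLIN1 and FABP4 could not be separated. The list sums were 5.81 to 8.89 and 13.2 to 17.2. The part of these markers in the members' differences was not tested. In sorted fractions of many cells, more cells that express a gene and more RNA per cell cannot be told apart.

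The ligands were next to absent as transcripts. IGF1 and IGFBP1, the insulin-repressed carrier gene 18.6 kb from IGFBP3, had 0 reads in all 6 libraries, and IGF2 had 1 read in CD24low replicate 1 (0.88 normalized counts) and 0 elsewhere. H19, the imprinted non-coding RNA gene that shares control elements with IGF2 and lies 128 kb from it (chromosome 11, 1995176 to 2001470), was detected in 5 of the 6 libraries. It had 14.9, 42.5 and 0 normalized counts in CD24high cells and 308, 1603 and 169 in CD24low cells. Its difference of 5.63 (SE 1.23) was the largest of all 16047 genes tested, with a limma adjusted p of 0.12 and a DESeq2 adjusted p of 0.058. On summed reads, 61 against 2200, the ratio was 32.7 (exact 95% interval 25.3 to 42.9, counting error only). The 0 in CD24high replicate 3 raises this log2 difference: without that library it was 4.06. Within low rRNA share H19 differed by 2.69; within high share its only CD24high library is the one with 0 reads, so no difference is given.

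Other genes of the system were counted in 6 lists with 79 genes, of which 63 were tested. Limma and edgeR called 0 of them, and DESeq2 called 4 higher and 0 lower, where it called 2.51% of all genes. At an unadjusted limma p below 0.05 there were 12 higher and 2 lower, 22.2% of the 63, where all genes tested gave 13.5%. Groups did not overlap for 13 higher and 3 lower, 25.4%, against 19.5% of all genes tested. The median difference over the 63 genes was 0.06, and over all genes tested -0.01.

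Genes of the ligands, of other carriers and of proteases were measured beside the members. In the list of ligands, carriers and binding protein proteases 6 of 14 genes were tested, with a median of 0.68. Limma called 0 and DESeq2 1 higher. Groups did not overlap for 3 of the 6 (HTRA1, ADAM12 and STC1), all higher, where 19.5% of all genes tested did not. STC1 differed by 0.86 (SE 0.38, limma adjusted p = 0.37). PAPPA, which cleaves IGFBP4, had 159, 224 and 245 normalized counts in CD24high cells and 177, 471 and 284 in CD24low cells. Its groups overlapped (difference 0.48, SE 0.32, limma adjusted p = 0.55), as did those of ADAM9, also in this list (0.08, SE 0.15). HTRA1, a secreted serine protease that can cut IGFBPs, had 307, 448 and 232 normalized counts in CD24high cells and 620, 1408 and 504 in CD24low cells (difference 1.26, SE 0.36, limma adjusted p = 0.19). ADAM12, a metalloprotease known to cleave IGFBP3 and IGFBP5, had 145, 120 and 118 and then 257, 369 and 160 (0.96, SE 0.27, limma adjusted p = 0.19, DESeq2 adjusted p = 0.019). Neither pair of groups overlapped, and again CD24low replicate 2 was highest. Without that library HTRA1 differed by 0.82. Within low and high rRNA share HTRA1 differed by 0.44 and 2.00 and ADAM12 by 0.28 and 1.37.

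Of the receptor adaptors and PI3K-AKT genes 30 of 32 were tested, with a median of 0.08; DESeq2 called 2 higher and limma 0. FOXO1, a transcription factor that insulin signalling keeps out of the nucleus, had 334, 575 and 418 normalized counts in CD24high cells and 760, 1682 and 710 in CD24low cells (1.16, SE 0.31, limma adjusted p = 0.18). PIK3R1, the regulatory subunit of PI3 kinase, had 1289, 1418 and 1184 and then 1822, 2632 and 1595 (0.61, SE 0.18, limma adjusted p = 0.20, DESeq2 adjusted p = 0.037). The groups were apart for both. The other gene that DESeq2 called in this list was IRS1, an adaptor of the insulin and IGF receptors, with a difference of 0.82 (SE 0.25, limma adjusted p = 0.21, DESeq2 adjusted p = 0.018). Within low and high rRNA share the differences were 0.69 and 1.43 for FOXO1, 0.24 and 0.89 for PIK3R1 and 0.12 and 1.25 for IRS1. Without CD24low replicate 2 they were 0.77 for FOXO1, 0.40 for PIK3R1 and 0.55 for IRS1. Of 10 FOXO-regulated genes 7 were tested (median 0.0024) and none was called by limma, edgeR or DESeq2; 2 had an unadjusted limma p below 0.05. They were CITED2, a transcriptional coregulator, with a difference of 0.52 (SE 0.16, limma adjusted p = 0.21), and CCNG2, a cyclin of arrested cells, with -0.35 (SE 0.14, limma adjusted p = 0.30).

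Among partners of the binding proteins outside the IGF receptors 9 of 12 were tested, with a median of 0.06; DESeq2 called 1 higher and limma 0. LRP1, an endocytic receptor that takes up IGFBP3, had 53.1, 112 and 84.7 normalized counts in CD24high cells and 285, 1151 and 170 in CD24low cells (2.25, SE 0.58, limma adjusted p = 0.17, DESeq2 adjusted p = 0.058). ITGA5, the fibronectin receptor subunit, had 1609, 1730 and 1223 and then 3181, 4826 and 2190 (1.10, SE 0.25, limma adjusted p = 0.13, DESeq2 adjusted p = 0.00039). Both were apart between the groups. Without CD24low replicate 2 LRP1 differed by 1.46. Within low and high rRNA share LRP1 differed by 1.13 and 2.74 and ITGA5 by 0.39 and 1.68; the part of the rRNA share in the differences of these genes was not tested. All 9 genes of mannose 6-phosphate sorting, the trafficking route that IGF2R serves, were tested and none was called by limma, edgeR or DESeq2; 0 had an unadjusted limma p below 0.05. Their differences lay between -0.15 and 0.14, with GNPTAB, which makes the sorting tag, at -0.15 (SE 0.11) and M6PR, the smaller sorting receptor, at -0.13. Of the 4 genes in the list of IGF2 mRNA-binding proteins and H19, 3 were tested and none was called by limma, edgeR or DESeq2, with an unadjusted limma p below 0.05 for 1 of them, H19. IGF2BP3, an IGF2 mRNA-binding protein, differed by -0.14.

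**Figure D4:**
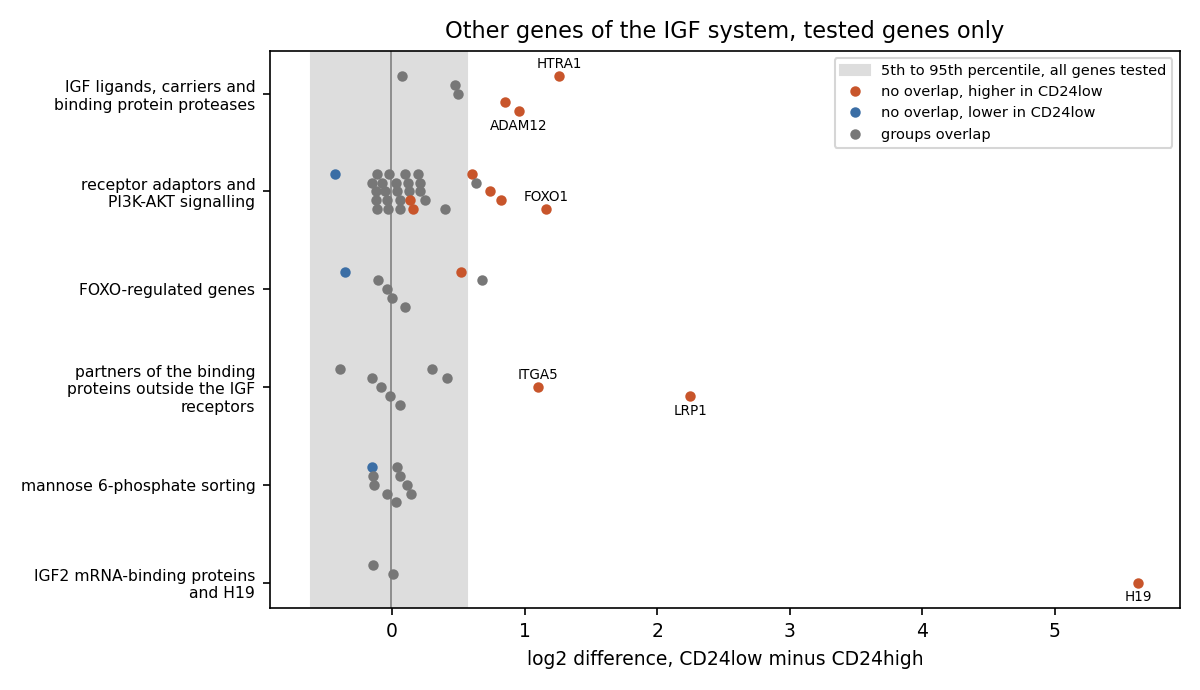
Log2 differences (CD24low minus CD24high) of the tested genes of the 6 lists, 1 point a gene; orange and blue points have groups that do not overlap, and the grey band spans the 5th to 95th percentile of all genes tested (-0.61 to 0.56). HTRA1, ADAM12, STC1, FOXO1, IRS1, SOCS3, GRB10, PIK3R1, BCL6, ITGA5, LRP1 and H19 lie to the right of the band. The 9 genes of mannose 6-phosphate sorting lie inside it.

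The profiles most like those of the members were sought among 11470 genes whose mean reached 100 normalized counts, by the root-mean-square distance of log2 values centred over the 6 libraries. For IGFBP4, the member with the largest difference, the nearest were GNG11, a G protein subunit gene (distance 0.17), S1PR3, a receptor for sphingosine 1-phosphate (0.32), and FN1, which encodes fibronectin (0.42). For IGF1R, the member with the lowest difference, they were TNKS1BP1 (0.038), SSH2 (0.040) and ZNF8 (0.041). Between members, IGF1R and INSR were closest (0.17), and IGFBP4 was farthest from IGF1R and INSR (1.57 each). All 6 libraries entered these distances, so they share the group difference.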

How the data were processed

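Per the submitters' processing notes, reads were aligned with STAR 2.5.2 to hg38 and gene counts were normalized with DESeq2 in R 3.5.0. The table holds a signal: counts that the authors divided by a size factor per library. How reads were counted, on which strand setting and with which annotation is not given in the sources used here. Dividing by each library's smallest step recovered whole reads for 100% of values within 0.1 reads, 16691162 to 27293177 per library; intervals and floors cover counting error alone, because the labels name no molecular identifiers. Of 58381 gene IDs 58261 matched GENCODE 29 without their version, which gave symbols, coordinates and exon lengths. IGF2 has 2 IDs with identical reads, counted once. Promoter sequences are RefSeq's (GRCh38.p14) and covered 8 of the 9 members.

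The fit was limma 3.58.1 (R 4.3.3) on log2 of the normalized count + 1, allowing a mean-variance trend, two-sided, without covariates, over the 16047 genes whose mean reached 10, with Benjamini-Hochberg adjustment over all of them. DESeq2 1.42.0 and edgeR 4.0.16 (quasi-likelihood) were run on recovered reads, and the tests were tried on simulated data. Tables and figures were made with matplotlib 3.10.9, pandas 2.3.3 and Python 3.11.15. Groups came from the sample titles. Members, lists, tests and alternatives were chosen with earlier results of these data known. The rule for named genes took all 9 members, IGF1, IGF2 and IGFBP1, the genes of each list past limma's adjusted p (where there were none, the 2 of smallest p), and the 3 nearest profiles for the members with the largest positive and negative difference. Other genes, such as POLR2B, AIRN, PAPPA, ADAM9, the markers and those of the closing section, were named after their values were seen. The alternatives were other pseudocounts (0.5 and 5), filters (none, or a mean of at least 50), total scaling, DESeq2, edgeR, no trend, a replicate block, an rRNA share covariate, each library left out, both libraries numbered 3 left out, and another gene length.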

Additional observations from a re-analysis of the deposited data

How the results depend on the processing

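The members' differences stayed within 1 SD of the replicates in 141 of 150 alternative values. The exceptions were IGFBP4 with a pseudocount of 5 (2.32) and values within rRNA share, an alternative added after seeing the data: within low share IGFBP2 (1.15), IGFBP4 (2.35), IGFBP6 (0.46), IGFBP7 (0.47) and INSR (0.17), and within high share IGFBP3 (-0.13), IGFBP7 (2.40) and INSR (-0.12). The cause was not tested. Of the members, 4 were higher without overlap, and also 4 with total scaling. Without both libraries numbered 3 it was 7. Fewer libraries can overlap there and the share over all genes was not taken, so nothing is read from that count. Limma called 0 genes over all genes in the main fit, but 164 with no filter, 402 with DESeq2, 103 without both libraries numbered 3, and 0 to 366 with 1 library left out, the highest without CD24low replicate 3. Of the other genes of the IGF system it called 0, but 2 with no filter (H19 and ITGA5), 4 with DESeq2 and 0 to 5 with 1 library left out, again highest without CD24low replicate 3. With a replicate block limma called 716 genes and 10 genes of the system. Deviations of same-numbered libraries correlated at 0.27, 0.30 and 0.051, and those of differently numbered libraries at -0.26 to 0.075. CD24low replicates 1 and 2 correlated best with the CD24high library of their own number, and CD24low replicate 3 with CD24high replicate 1 (0.075). The labels do not say whether the numbers are pairs, and these values do not settle it. The main fit did not use them. By the longest transcript the CD24high levels per kb were 236 for IGFBP3, 192 for IGFBP6, 132 for IGFBP7, 87.1 for IGF1R, 52.4 for INSR and 198 for IGF2R. At this depth IGFBP4 in CD24high cells rests on 3 or 4 reads a library.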

Other observations

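The IGF-like family, secreted proteins that resemble IGFs in name and cysteine pattern, was scarce. IGFL1 had 5.81, 4.94 and 32.1 normalized counts in the CD24high libraries (replicates 1, 2 and 3, an order kept below) against 0, 1.91 and 6.86 in the CD24low ones. IGFL2 had 4.98, 0.99 and 0 and then 6.17, 13.4 and 5.88, from 6, 1 and 0 reads and then 7, 14 and 6. Its CD24low values were all above its CD24high values, but at these read numbers the groups could not be separated. IGFLR1, their receptor, had 13.3, 8.89 and 16.1 and then 16.7, 27.7 and 22.5. Its groups were barely apart, at 16.1 and 16.7, from 11 and 19 reads. IGFL3 and IGFL4 stayed under 3 normalized counts in every library. These genes were chosen after their values were seen and have no test of their own here.

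Genes that overlap the span of a member, as POLR2B does that of IGFBP7, were left out of a search for neighbours. The nearest tested protein-coding genes on either side of IGFBP2, IGFBP4, IGFBP6 and IGFBP7 were looked up, 8 in all. The groups overlapped for 7 of them, including TOP2A (difference -0.07) and TNS4 (-0.34) beside IGFBP4 and SPRYD3 (-0.20) and CSAD (-0.04) beside IGFBP6. The exception was TNS1, which encodes a tensin of focal adhesions and lies 1135 kb from IGFBP2. It had a mean of 4.11 normalized counts over CD24high and 42.5 over CD24low libraries (difference 2.70, SE 0.67, limma adjusted p = 0.16). Like IGFBP4, TNS1 passed the filter only through its CD24low libraries. Its place among the tested neighbours therefore depends on the group where it was high, and little is read from its adjusted p. Over all 8 tested members 3 of 16 such neighbours did not overlap, where 19.5% of all genes tested did not. The other two flank IGF1R: ARRDC4 was at -0.53 (SE 0.17, limma adjusted p = 0.25) and SYNM at 0.62 (SE 0.22, limma adjusted p = 0.27).

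MIR675, the microRNA gene within H19, has an ID of its own in the deposited table. Reads over it cannot be told from reads of the H19 transcript, so it is no second measure. All its CD24high values are below what 3 reads would give. It had 0.83, 1.98 and 0 normalized counts in the CD24high libraries against 29.1, 139 and 12.7 in the CD24low ones, in the same order of libraries as H19.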
